A study of Mus musculus with 20 samples.

Results

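The genes described here are the matrix metalloproteinases (MMPs), the secreted proteases with thrombospondin repeats of the ADAMTS family and the tissue inhibitors of metalloproteinases (TIMPs) of the mouse. Members were all genes whose symbol is Mmp, Adamts or Timp followed by a number, with a letter where there is one, in the GENCODE M21 annotation. This gave 46 of the 55487 gene identifiers in the count files, namely 23 Mmp, 19 Adamts and 4 Timp genes. Their transcripts were counted in granulosa cells (GCs) of 20 adult female mice of the Dummerstorf lines ctrl and FL1. Both lines descend from the same founder population of crossed inbred and outbred mice. FL1 was selected over many generations for litter size and litter weight, whereas ctrl was bred without selection. Each line is a single breeding population without a transgene, so what selection and what drift changed cannot be told apart. The 4 groups were ctrl in estrus, FL1 in estrus, ctrl in diestrus and FL1 in diestrus, each with 5 mice of one age class, and the stage was read from vaginal smears. Each sample held the mural GCs of the largest follicles of 1 mouse, taken after the follicles were opened and without the oocyte and its cumulus cells.

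MMPs and ADAMTS proteases are zinc enzymes that cut proteins outside the cell. MMPs cleave collagens, laminin, elastin and growth factor carriers, while several ADAMTS proteases cleave versican and related proteoglycans and others trim procollagens. TIMPs bind the active site of MMPs, and TIMP3 also blocks several ADAMTS and ADAM proteases. In the ovary these enzymes take part in the remodelling of the follicle wall during growth, in the rupture of the follicle at ovulation and in the build-up and breakdown of the corpus luteum.

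Members differed first in whether reads were found at all, and 5 of the 10 members without a read lie in a single MMP gene cluster. Of the 23 MMP genes, 10 lie side by side on chromosome 9 of GRCm38 between 7272514 and 7699585, a stretch of 427.1 kb. Of these 10 genes, 5 (Mmp1b, Mmp3, Mmp1a, Mmp20 and Mmp7) had no read in any of the 20 samples, and all 10 together had 205 reads. Every member that could be tested lies outside this cluster. To show what the control regions of members with few or no reads and of expressed members look like, the RefSeq promoter windows on GRCm38.p6 were read, from 250 bases before to 50 bases after the start site (300 bases, strand of the gene). Such a window was found for 32 of the 46 members. Each motif was searched on both strands. The AP-1 factors were represented by their known binding sequence TGACTCA. For promoters positioned by the TATA-binding protein, the letters TATAAA were searched. Sites of the SP1 type, which are known as GC boxes, were represented by the letters GGGCGG. On the other strand AP-1 reads TGAGTCA, while a GC box reads CCGCCC. Capitals mark these motifs in the windows of Mmp3 (stromelysin 1, without reads, chr9:7445572-7445871, plus strand) and Mmp13 (collagenase 3, with 20 reads, chr9:7272264-7272563, plus strand), and in those of Timp1 (chrX:20869916-20870215, plus strand) and Adamts2 (chr11:50601835-50602134, plus strand), the 2 members that differed between the lines in estrus.
Mmp3: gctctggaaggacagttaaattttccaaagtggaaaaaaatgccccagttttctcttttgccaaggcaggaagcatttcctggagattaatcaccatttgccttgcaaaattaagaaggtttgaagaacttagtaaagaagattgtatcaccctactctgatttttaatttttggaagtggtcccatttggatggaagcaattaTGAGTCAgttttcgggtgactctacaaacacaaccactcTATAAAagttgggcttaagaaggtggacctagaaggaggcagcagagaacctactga
Mmp13: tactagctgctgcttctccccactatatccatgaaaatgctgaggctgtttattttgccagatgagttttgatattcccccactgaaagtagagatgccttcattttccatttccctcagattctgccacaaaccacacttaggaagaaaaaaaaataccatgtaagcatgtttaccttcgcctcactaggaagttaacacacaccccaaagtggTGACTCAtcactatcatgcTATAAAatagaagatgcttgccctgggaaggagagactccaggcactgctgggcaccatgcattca
Timp1: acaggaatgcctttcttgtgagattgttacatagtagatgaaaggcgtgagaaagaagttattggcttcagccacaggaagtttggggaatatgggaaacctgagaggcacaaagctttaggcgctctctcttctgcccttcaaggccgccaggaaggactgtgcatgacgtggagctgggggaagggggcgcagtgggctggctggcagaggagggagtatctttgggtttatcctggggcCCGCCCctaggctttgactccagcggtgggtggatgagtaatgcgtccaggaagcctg
Adamts2: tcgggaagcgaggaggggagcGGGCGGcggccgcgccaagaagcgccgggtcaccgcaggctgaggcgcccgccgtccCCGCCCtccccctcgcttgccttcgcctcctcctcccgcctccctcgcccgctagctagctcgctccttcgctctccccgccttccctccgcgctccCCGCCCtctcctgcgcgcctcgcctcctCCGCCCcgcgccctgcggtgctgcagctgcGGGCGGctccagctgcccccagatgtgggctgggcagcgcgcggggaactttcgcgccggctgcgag

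In Mmp3 the AP-1 sequence began 46 bases and the TATA box 7 bases before the start site. In Mmp13 these distances were 35 and 16 bases. Timp1 held 1 GC box, which began 8 bases before the start site, and Adamts2 held 5. AP-1 sequences were found in the windows of 7 members (Mmp1a, Mmp1b, Mmp3, Mmp7, Mmp10, Mmp12 and Mmp13), and all 7 belong to the cluster on chromosome 9. Of all 32851 promoter windows, 5.2% held the AP-1 sequence, 13.6% the TATA box and 35.7% the GC box. Among the 9 members with a window and a mean of 10 CPM (read counts scaled by library size) or more, a GC box was found in 9, an AP-1 sequence in 0 and a TATA box in 1 (Adamts1, where it began 32 bases before the start site). The GC share of these windows ran from 55.0% to 77.3%. Among the 18 members with a window and a mean under 1 CPM, 8 held a GC box, 6 an AP-1 sequence and 9 a TATA box. Of the 5 with a mean of 1 to 10 CPM, 1 held a GC box, 1 an AP-1 sequence and 1 a TATA box. The GC share of the windows ran from 37.7% to 80.0% under 1 CPM and from 38.7% to 66.0% at 1 to 10 CPM. These matches describe the letters of the windows and were not tested as sites.

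CPM values below use library sizes scaled over all 20 samples together. With the 3′ end libraries used here, a transcript gives about the same number of reads whatever its length, so levels can be set side by side between genes per transcript. The samples held 5446576 to 8257041 reads on genes, with a median of 6457585.5. The summed level of 7 GC markers ran from 4825 to 12940 CPM. Inha, which encodes the inhibin alpha subunit, had the highest median of the 7 in each group and was at 2716 CPM or above in every sample. Of the 7 markers, 6 had reads in all 20 samples. Cyp19a1, the aromatase gene, fell as low as 5.09 CPM in a ctrl diestrus sample, and Amh had reads in only 14 of the 20 samples, with medians of 0.267 CPM in ctrl diestrus and 0 CPM in FL1 diestrus. Markers of other cells were also present, among them 7 stroma markers (137 to 1717 CPM in sum) and 5 oocyte markers (35.3 to 414 CPM in sum), although the oocytes had been left out. In such bulk samples fewer cells of a type and less RNA per cell cannot be told apart.

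Of the 46 members, 10 had no read at all (Mmp1a, Mmp1b, Mmp3, Mmp7, Mmp20, Mmp21, Mmp28, Adamts8, Adamts13 and Adamts20), 22 stayed under a mean of 1 CPM, these 10 included, and 14 had a mean of 10 CPM or more. Reads were found in all 20 samples for 13 members. A count of 0 in a sample allows up to 3 reads, or 0.343 to 0.545 CPM, which covers counting error only. For 4 of the 10 members without reads a 0 says less, since their transcript ends match other genes. Mmp28 (100% identical over 466 bases to 1 gene) and Mmp1b (100% over 160 bases to Mmp12) match a gene that overlaps them on the other strand. Reads from there cannot be told apart if strand was not used in counting. Mmp3 (96.2% over 211 bases to 1 gene) and Adamts13 (at least 90.5% over 130 bases or more to 14 genes) have near copies elsewhere, and shared reads may not have been counted. Adamts2, which removes the N-terminal propeptide of fibrillar procollagens, was the strongest expressed member with a mean of 197 CPM over the 20 samples. It was followed by Mmp11 (stromelysin 3, 170.4 CPM), Timp2 (150.0 CPM), Adamts5 (aggrecanase 2, 139.7 CPM), Timp3 (124 CPM), Mmp14 (the membrane-type 1 MMP, 103.65 CPM), Timp1 (99.7 CPM) and Adamts1 (62.4 CPM), a versican-cleaving protease known for its role in ovulation. Down to Timp1, neighbours in this order differed by less than the standard deviation (SD) within most of their groups, which for Adamts2 was 29.7 to 140.0 CPM.

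**Figure D1:**
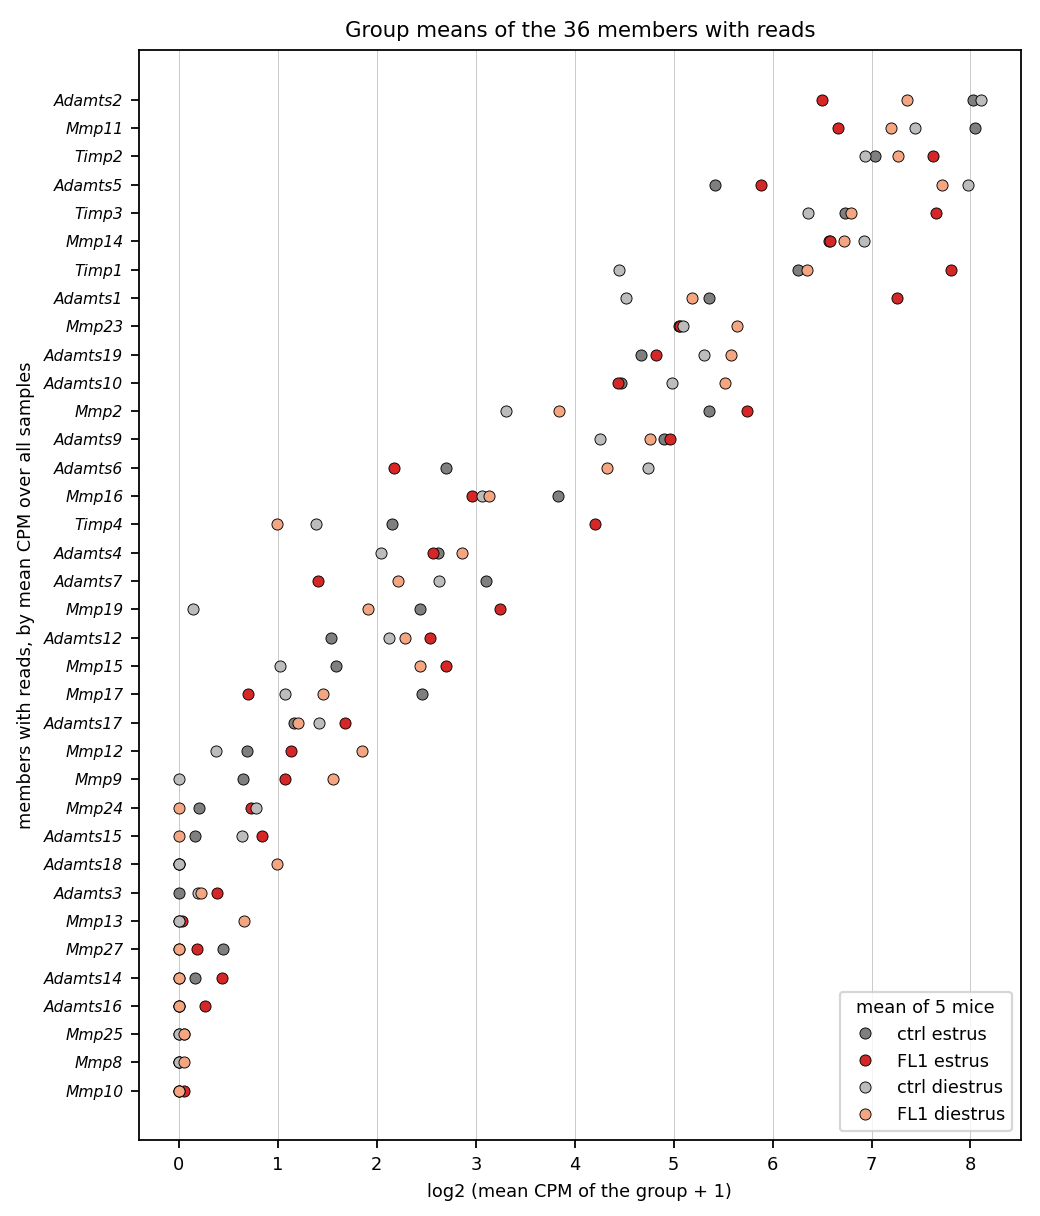
Group means of the 36 members with reads, ordered by their mean over the 20 samples. The x axis is log2 of the group's mean CPM plus 1, and each circle is the mean of 5 mice. Adamts2 stands at the top with 89.3 CPM in FL1 estrus and 274 CPM in ctrl diestrus, and the lowest rows hold members with a read in only 1 or 2 samples.

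By role, the collagenases (Mmp1a, Mmp1b, Mmp8 and Mmp13) reached at most 1.71 CPM in sum in any sample. The stromelysins were Mmp11 alone, since Mmp3 had no read and Mmp10 had 1. Of the gelatinases, which digest denatured and basement membrane collagen, Mmp2 had a mean of 28.7 CPM and Mmp9 of 0.902 CPM. Mmp9 had reads in 6 of the 20 samples and its highest count, 62 reads, in FL1 diestrus. Of the 6 membrane-type MMPs, Mmp14 held most transcripts, while Mmp16 (8.78 CPM), Mmp15 (3.23 CPM) and Mmp17 (1.99 CPM) were low and Mmp24 (0.384 CPM) and Mmp25 (0.0172 CPM) were close to 0. Of the 3 procollagen-processing proteases, Adamts2 was joined by only 20 reads of Adamts3 and 15 of Adamts14 in all samples.

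For the tests, genes with low counts were removed in each comparison, and 23 of the 46 members were kept in at least 1 comparison (8 Mmp, 11 Adamts and 4 Timp). The other 23 were kept in none. Differences were tested by edgeR's quasi-likelihood F test, and a member was called where the p adjusted by Benjamini-Hochberg over all genes tested was 0.05 or less. Log2 fold changes are given with their standard error (SE). The 4 comparisons share samples, since each group enters 2 of them, and so they are not independent of each other.

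FL1 diestrus replicate 1 stood apart from the other 4 samples of its group. Its Timp1 level was 240.4 CPM, where the others had 8.91 to 67.4 CPM. It had the highest Timp2 level of all 20 samples, 275 CPM, and the highest Timp3 level of its group, 185 CPM. Its luteinizing markers summed to 3607 CPM, where the other 4 samples of the group had 868 to 2048 CPM and the FL1 samples of estrus 3831 to 7990 CPM. It was also highest of its group in smooth muscle markers (1203 CPM, others 67.1 to 451) and red blood cell markers (1595 CPM, others 130 to 1087). The same held for endothelium (83.3 CPM, others 21.9 to 51.9) and stroma (1180 CPM, others 137 to 1076). Theca, leukocyte and surface epithelium markers were highest there too. GC, oocyte and cumulus markers were not. Main values that rest on this sample are also given without it.

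The first comparison asked how the selected line differs from ctrl in estrus, the stage around ovulation. Timp1 was stronger expressed in GCs of FL1 mice, by 1.55 on the log2 scale, and Adamts2 was weaker expressed, by a difference of -1.54. All 4 TIMP genes had a positive fold change, with a median of 1.23 (0.87 without FL1 replicate 2), but only Timp1 passed the test. Of the 22 members tested, 2 were called, or 9.09%, against 100 of 13007 genes, or 0.769%, over all genes. Groups without overlap in CPM were found for 4 members (Adamts2, Mmp17, Timp1 and Timp3), where the share over all genes was 3.55%.

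Timp1, a secreted inhibitor of most MMPs, lies on chromosome X (20870166 to 20874735, plus strand) inside Syn1, which runs on the other strand and had 37 reads in all samples. Timp1 was at 27.3, 68.8, 68.0, 86.2 and 128 CPM in the ctrl samples and at 242, 169.5, 171, 240.3 and 288 CPM in the FL1 samples of estrus (replicates 1 to 5). Every FL1 sample lay above every ctrl sample, and the mean was 222 ± 51.0 CPM (SD, n = 5) against 75.7 ± 36.5 CPM (SD, n = 5). The log2 fold change was 1.55 ± 0.30 (SE) with an adjusted p of 0.0152 by edgeR. The call was lost without ctrl estrus replicate 2 (adjusted p = 0.0509, edgeR) or replicate 3 (0.0557), and with all 20 samples in one fit (0.198), while the fold change stayed between 1.52 and 1.55 in these fits.

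Adamts2 (chromosome 11, 50602084 to 50807573, plus strand) was at 259, 302, 257, 272 and 209 CPM in ctrl and at 84.1, 54.4, 81.1, 136 and 90.7 CPM in FL1 samples of estrus. Here the FL1 samples all lay under the ctrl samples, with means of 89.3 ± 29.7 and 260 ± 33.8 CPM (SD, n = 5 each), a 2.91-fold lower level. The log2 fold change was -1.54 ± 0.22 (SE) with an adjusted p of 0.00199 by edgeR, and it was called in each of the 10 fits without 1 sample. Mmp11, a stromelysin that does not cut most of the usual matrix proteins, pointed the same way. It was at 202, 235, 289.7, 488 and 105.04 CPM in ctrl and at 92.6, 88.6, 127, 54.2 and 137 CPM in FL1 samples. Only ctrl replicate 5 fell into the range of FL1. For Mmp11 the log2 fold change was -1.40 ± 0.33 (SE) with an adjusted p of 0.0528 by edgeR, which missed the threshold, and of 0.00537 by DESeq2. Of the 10 fits without 1 sample only that without ctrl replicate 5 called it (adjusted p = 0.0139, edgeR), and the others gave 0.0594 to 0.140, with a log2 fold change of -1.05 without ctrl replicate 4. The adjusted p was 0.0750 by limma-voom, 0.0921 with a robust fit, 0.189 with a replicate block and 0.0273 with all 20 samples in one fit. Mmp11 overlaps Chchd10 on the other strand, which had more reads (51933 against 22977), and whether the authors counted by strand is not given in the sources used here. Chchd10 itself differed by -0.48 ± 0.19 (log2 fold change, SE, adjusted p = 0.322, edgeR) in estrus, and by -1.08 ± 0.22 (log2 fold change, SE, adjusted p = 0.0223, edgeR) from estrus to diestrus in ctrl.

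Among the other inhibitors, Timp3, which is held in the matrix, was at 59.5, 122, 82.9, 139 and 124 CPM in ctrl and at 167, 311, 161, 196 and 162 CPM in FL1 samples of estrus. The groups did not overlap, yet a log2 fold change of 0.92 ± 0.25 (SE) had an adjusted p of 0.108 by edgeR and of 0.0306 by DESeq2. Timp2, an inhibitor that also helps MMP14 to activate pro-MMP2, was at 79.9, 129, 161, 164 and 119.8 CPM in ctrl and at 214, 184, 182, 240.3 and 157 CPM in FL1. One FL1 sample, replicate 5, lay among the ctrl samples, and the log2 fold change was 0.58 ± 0.21 (SE, adjusted p = 0.273, edgeR). Timp4 was low, at 2.48, 2.17, 3.09, 2.36 and 7.10 CPM in ctrl and at 13.3, 58.5, 3.59, 3.23 and 8.31 CPM in FL1, with FL1 replicate 2 far above the rest. Its log2 fold change of 2.34 ± 0.77 (SE) had an adjusted p of 0.201 (edgeR), and it was 1.05 (adjusted p = 0.861) without FL1 replicate 2.

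The same FL1 sample stood out in Adamts1, which was at 13.8, 56.3, 45.1, 63.9 and 20.9 CPM in ctrl and at 119, 453, 36.9, 87.7 and 65.6 CPM in FL1 samples of estrus. It differed by a log2 fold change of 1.93 ± 0.55 (SE, adjusted p = 0.127, edgeR) with FL1 replicate 2 and 0.95 without it. Mmp17 was at 4.50 ± 1.43 CPM (SD, n = 5) in ctrl and at 0.628 ± 1.32 CPM in FL1, where only 2 of 5 samples had reads, and its log2 fold change of -2.82 ± 1.44 (SE) had an adjusted p of 0.513 (edgeR). Members at nearly the same level in both lines were Mmp14 (94.087 and 95.004 CPM), Mmp23 (32.3 and 32.5 CPM), Adamts9 (28.9 and 30.1 CPM) and Adamts10 (21.1 and 20.7 CPM in ctrl and FL1). For Mmp14 the log2 fold change was 0.01 ± 0.24 (SE). By DESeq2, 4 members were called (Adamts2, Mmp11, Timp1 and Timp3), where the share over all genes was 2.67%.

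Summed markers of other cells and cell states also stood at other levels in FL1 than in ctrl in estrus. The 5 markers of luteinizing GCs, all of which had reads, ran from 272 to 1490 CPM in sum in ctrl and from 3831 to 7990 CPM in FL1, and 3 of the 5 (Akr1c18, Lhcgr and Star) were called higher. The 6 leukocyte markers ran from 13.2 to 34.4 CPM in ctrl and from 33.3 to 87.1 CPM in FL1, and the 4 markers of the ovarian surface epithelium from 3.21 to 18.2 and from 20.7 to 56.1 CPM. No marker of these lists was at 0 throughout either group, and none of the last 2 lists was called. Their part in the differences of Timp1 and Adamts2 was not tested.

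**Figure D2:**
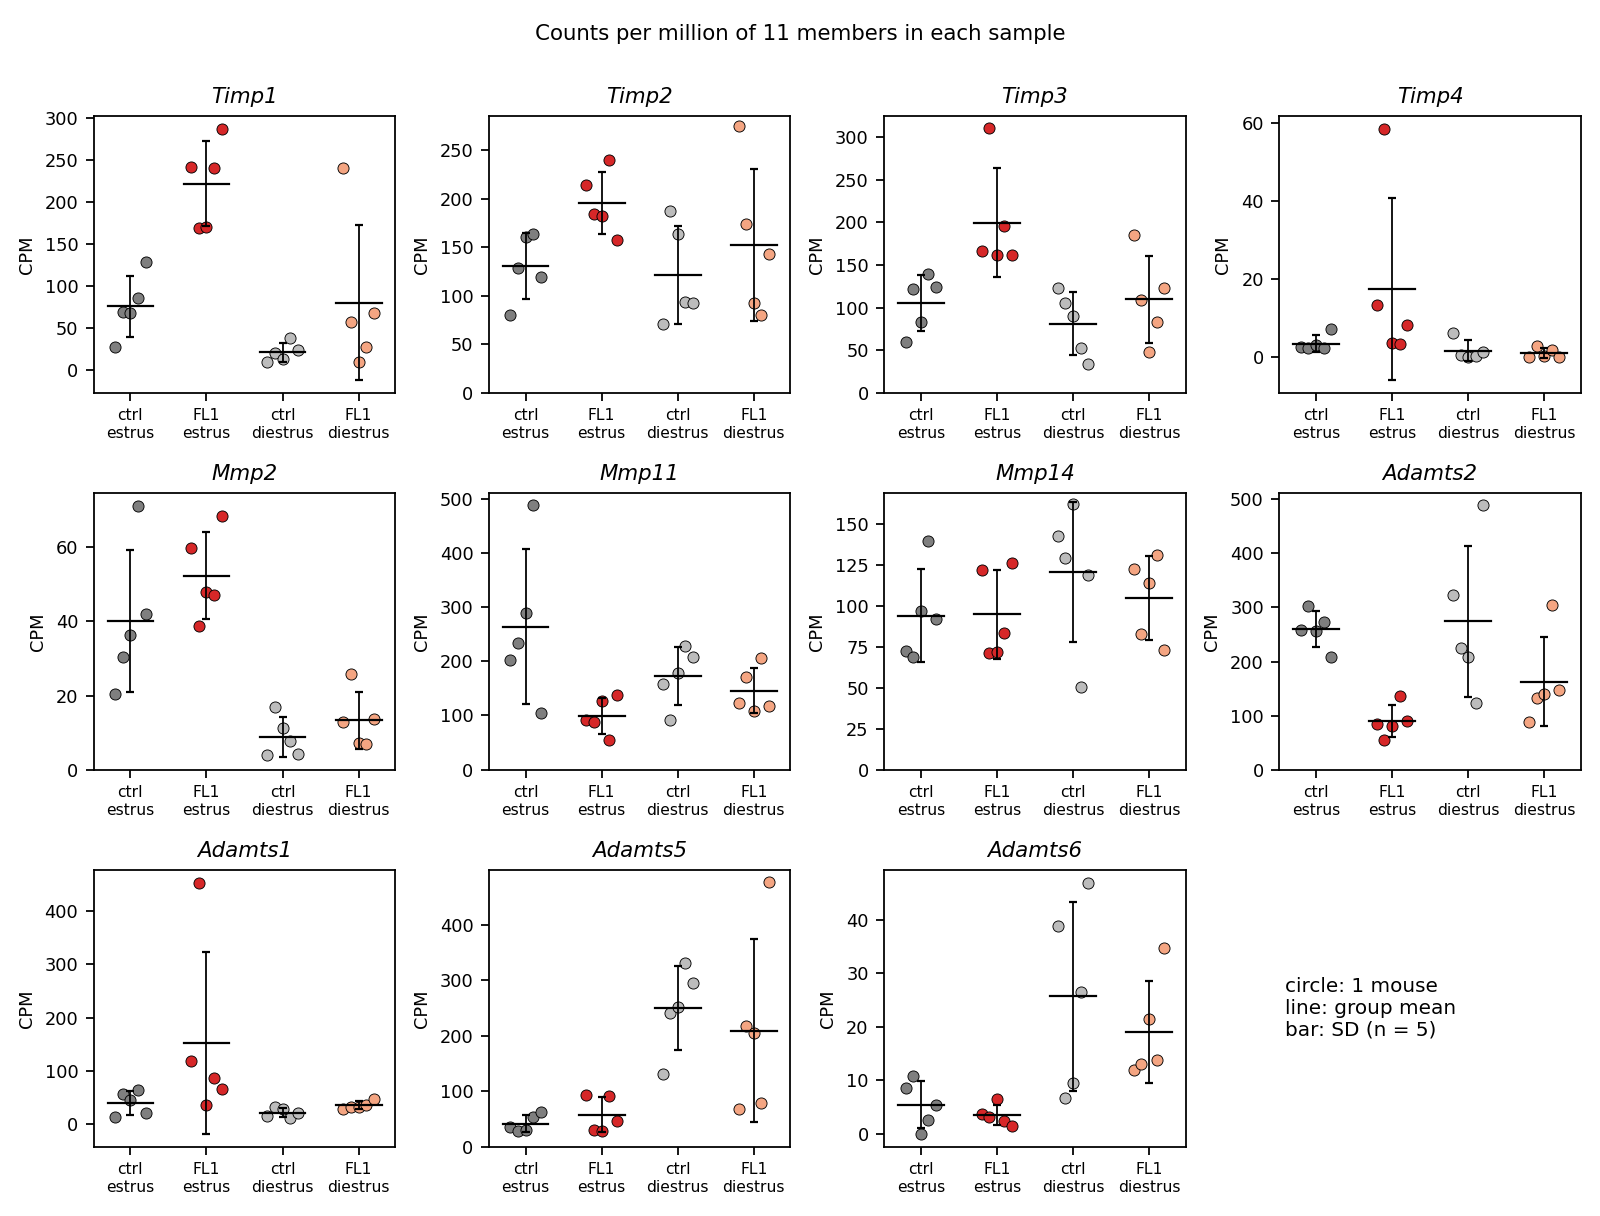
CPM (y axis) of 11 members in each of the 20 mice, by group (x axis). Circles are samples, lines are group means and bars are SD (n = 5). In estrus the Timp1 samples of FL1 (169.5 to 288 CPM) lie above those of ctrl (27.3 to 128 CPM), and the Adamts5 samples of ctrl rise from 28.2 to 62.0 CPM in estrus to 131 to 331 CPM in diestrus.

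In diestrus no member was called between the lines. Of 18 members tested, 0 passed, while 32 of 12886 genes, or 0.248%, were called over all genes. An unadjusted p under 0.05 by edgeR was found for 2 members (Timp1 and Adamts1), or 11.1%, against 716 genes, or 5.56%, over all genes. No member had groups without overlap (1.59% over all genes), and none was called by DESeq2 (0.72%). Timp1 was at 9.63, 20.5, 12.8, 38.0 and 23.3 CPM in ctrl and at 240.4, 57.1, 8.91, 27.3 and 67.4 CPM in FL1 samples of diestrus. FL1 replicate 1 was as high as the FL1 samples of estrus, and the log2 fold change of 1.96 ± 0.63 (SE, adjusted p = 0.490, edgeR) was 0.96 ± 0.50 (SE, adjusted p = 0.837) without it. Adamts2 was at 323, 225, 209, 123 and 489.7 CPM in ctrl and at 89.0, 133, 139, 305 and 148 CPM in FL1, and the groups overlapped (log2 fold change -0.74 ± 0.35 SE, adjusted p = 0.899, edgeR). Mmp11 was at 158, 91.5, 178, 228 and 207 CPM in ctrl and at 122, 171, 109.05, 206 and 118 CPM in FL1 in this stage, with a log2 fold change of -0.24 ± 0.26 (SE).

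The third comparison asked how the members change from estrus to diestrus, when new follicles grow, within ctrl. Adamts5 was stronger expressed in diestrus, and Mmp2 and Timp1 were weaker expressed. Of the 19 members tested these 3 were called, or 15.8%, against 175 of 12850 genes, or 1.36%, over all genes. Adamts5 and Mmp2 had groups without overlap (3.66% over all genes). DESeq2 called the same 3 and Mmp19 (3.39% over all genes).

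Adamts5, an aggrecan and versican-cleaving protease (chromosome 16, 85856173 to 85901828, minus strand), was at 35.7, 28.2, 29.5, 52.7 and 62.0 CPM in ctrl estrus and at 131, 241, 252, 331 and 295 CPM in ctrl diestrus. The mean was 6.01-fold higher in diestrus, 250.1 ± 75.3 against 41.6 ± 14.98 CPM (SD, n = 5 each). The difference on the log2 scale was 2.58 ± 0.28 (SE) with an adjusted p of 3.59e-04 by edgeR, and it was called in each of 10 fits without 1 sample and in all 7 alternative fits. In FL1 it was at 93.7, 30.1, 28.7, 91.8 and 45.8 CPM in estrus and at 67.5, 218, 205, 78.7 and 476 CPM in diestrus. The FL1 samples of diestrus replicates 1 and 4 lay in the range of estrus, and the log2 fold change of 1.83 ± 0.47 (SE) had an adjusted p of 0.118 (edgeR), or 2.06 ± 0.44 and 0.0261 without FL1 diestrus replicate 1.

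The neighbour gene Adamts1 lies 53059 bases away on the same strand, with no other coding gene between them, and its values pointed the other way. In diestrus Adamts1 was at 15.5, 32.0, 28.6, 12.2 and 21.3 CPM in ctrl and at 28.5, 32.3, 31.9, 36.3 and 48.1 CPM in FL1. In FL1, 4 of the 5 diestrus samples lay under every estrus sample, while the ctrl groups overlapped. The log2 fold change from estrus to diestrus was -0.88 ± 0.41 (SE, adjusted p = 0.419, edgeR) in ctrl and -2.11 ± 0.49 (SE, adjusted p = 0.0853, edgeR) in FL1, where DESeq2 gave an adjusted p of 0.00309. Without FL1 estrus replicate 2 the change in FL1 was -1.14 (adjusted p = 0.210, edgeR). Neither passed the main test.

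Mmp2, which is made as a proenzyme and cuts collagen IV of the basement membrane (chromosome 8, 92827291 to 92853420, plus strand), was at 20.4, 30.4, 36.4, 71.3 and 42.1 CPM in ctrl estrus and at 4.10, 16.9, 11.3, 7.81 and 4.28 CPM in ctrl diestrus. In FL1 it was at 59.8, 38.8, 48.0, 47.0 and 68.3 CPM in estrus and at 12.9, 25.9, 7.29, 6.82 and 13.8 CPM in diestrus. In both lines every diestrus sample lay under every estrus sample, and Mmp2 was the only member called by edgeR between the stages in both lines. The log2 fold change was -2.18 ± 0.45 (SE, adjusted p = 0.0226, edgeR) in ctrl and -1.98 ± 0.36 (SE, adjusted p = 0.0265, edgeR) in FL1. The test of the difference between these changes gave 0.20 ± 0.57 (SE, adjusted p = 1.00, edgeR). Leaving out 1 sample kept the call in 7 of 10 fits in ctrl (highest adjusted p = 0.0812, without ctrl estrus replicate 4) and in 5 of 10 fits in FL1 (highest 0.0760, without FL1 diestrus replicate 5), and limma-voom gave 0.0652 in ctrl.

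Timp1 was weaker expressed in ctrl diestrus than in ctrl estrus, with 20.8 ± 11.1 against 75.7 ± 36.5 CPM (SD, n = 5 each). One estrus sample, replicate 1 with 27.3 CPM, lay in the range of diestrus. The difference on the log2 scale was -1.87 ± 0.40 (SE) with an adjusted p of 0.0271 by edgeR. The call was kept in only 3 of 10 fits without 1 sample (highest adjusted p = 0.0720, without ctrl estrus replicate 5) and was lost with all 20 samples in one fit (0.0856). Within FL1 the log2 fold change of Timp1 was -1.47 ± 0.55 (SE, adjusted p = 0.352, edgeR), and -2.48 ± 0.42 (SE, adjusted p = 0.00785) without FL1 diestrus replicate 1. All 4 TIMP genes had a negative fold change from estrus to diestrus in both lines, with medians of -0.74 in ctrl and -1.17 in FL1, where the medians over all genes were 0.00 and 0.01. Without FL1 diestrus replicate 1 the median in FL1 was -1.82. Without ctrl diestrus replicate 1 the median in ctrl was -1.13, and Timp2 had a positive value of 0.04 there.

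Summed cell markers also stood at other levels in the 2 stages. The 7 stroma markers, each with reads in every group, ran from 566 to 1251 CPM in sum in ctrl estrus and from 146 to 669 CPM in ctrl diestrus, and from 859 to 1717 and 137 to 1180 CPM in FL1. One of the 7, Col3a1, was called lower in ctrl diestrus and none in FL1. The 6 leukocyte markers ran from 13.2 to 34.4 CPM in ctrl estrus and from 5.997 to 13.1 CPM in ctrl diestrus. In the same order of stages, the 4 red blood cell markers had 285 to 670 and 42.5 to 326 CPM in ctrl. In FL1 they had 315 to 1075 and 130 to 1595 CPM. The 5 luteinizing markers had 272 to 1490 and 380 to 929 CPM in ctrl, and 3831 to 7990 and 868 to 3607 CPM in FL1. The 4 surface epithelium markers had 3.21 to 18.2 and 1.45 to 33.4 CPM in ctrl, and 20.7 to 56.1 and 3.41 to 28.1 CPM in FL1. No marker of these lists was called. The GC markers had 5565 to 8513 CPM in ctrl estrus and 7531 to 12940 CPM in ctrl diestrus, with Fshr called higher. They did not all move the same way in ctrl. The medians of Fshr, Cyp19a1, Inha, Inhba (943 and 3011 CPM) and Nr5a2 were higher in diestrus. Those of Foxl2 (572 and 372 CPM) and Amh (11.2 and 0.267 CPM) were lower. The 3 theca markers ran from 68.2 to 125 CPM in ctrl estrus and from 76.0 to 315 CPM in ctrl diestrus. Of the 2 that were tested, Cyp17a1, which encodes the enzyme that makes androgens, was called higher, with medians of 10.3 and 82.5 CPM. The other, Ptch1, was not called, with medians of 93.4 and 85.8 CPM, while Insl3 had a read in 1 sample only. The part of these shifts in the changes of Mmp2, Timp1 and Adamts5 was not tested.

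Within FL1, 1 of 21 members (Mmp2, 4.76%) was called between the stages, against 29 of 13114 genes, or 0.221%, over all genes. Without FL1 diestrus replicate 1 the count was 4 members (Adamts5, Adamts6, Mmp2 and Timp1), while 178 of 13580 genes, or 1.31%, were called over all genes. Groups without overlap were found for Adamts6, Mmp2 and Timp4 (2.42% over all genes), and DESeq2 called these 3 and Adamts1 (1.72% over all genes). Adamts6 was at 3.77, 3.25, 6.55, 2.53 and 1.53 CPM in FL1 estrus and at 12.01, 13.0, 21.6, 13.8 and 34.6 CPM in FL1 diestrus. Its log2 fold change was 2.41 ± 0.53 (SE, adjusted p = 0.0675, edgeR), and 2.53 ± 0.54 (SE, adjusted p = 0.0267) without replicate 1 of FL1 diestrus. In ctrl it was at 8.60, 10.9, 0, 2.65 and 5.36 CPM in estrus and at 38.9, 6.69, 9.47, 26.5 and 46.9 CPM in diestrus, where the groups overlapped (log2 fold change 2.22 ± 0.81 SE, adjusted p = 0.239, edgeR).

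Timp4 was at 0, 2.88, 0.162, 1.87 and 0 CPM in FL1 diestrus and at 6.24, 0.402, 0, 0.182 and 1.20 CPM in ctrl diestrus, where 7 of the 10 samples had fewer than 10 reads. Within FL1 its log2 fold change of -4.11 ± 1.11 (SE) had an adjusted p of 0.137 by edgeR and of 0.00776 by DESeq2, and it was -2.84 (adjusted p = 0.614, edgeR) without FL1 estrus replicate 2. Timp3 was at 123, 105.9, 89.7, 52.9 and 33.3 CPM in ctrl and at 185, 108.6, 47.8, 83.3 and 123 CPM in FL1 in diestrus, with a log2 fold change from estrus of -0.87 ± 0.30 (SE, adjusted p = 0.291, edgeR) in FL1. Timp2 stood at 71.4, 187, 163, 93.6 and 92.1 CPM in ctrl and at 275, 174, 92.0, 79.7 and 143 CPM in FL1 in the same stage. Among the inhibitors it had the smallest fold changes with the stage, -0.11 ± 0.27 in ctrl and -0.36 ± 0.29 in FL1 (SE), neither of which passed the test. Without FL1 diestrus replicate 1 the changes in FL1 were -0.69 ± 0.24 for Timp2 (SE, adjusted p = 0.178, edgeR) and -1.15 ± 0.28 for Timp3 (SE, adjusted p = 0.0507, edgeR).

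Mmp14, which activates pro-MMP2 at the cell surface, showed no clear pattern. It was at 72.7, 69.0, 96.7, 139.8 and 92.2 CPM in ctrl estrus and at 122, 71.3, 71.7, 83.8 and 126 CPM in FL1 estrus. In diestrus it was at 143, 129, 163, 50.3 and 119 CPM in ctrl and at 123, 82.6, 114.1, 131 and 73.3 CPM in FL1. All 4 groups overlapped, and its log2 fold changes lay between -0.20 and 0.35 with SE of 0.24 to 0.28. Part of the last 500 bases of 1 of its transcripts was at least 90% identical to ends of transcripts of 70 other genes over 151 to 182 bases, so reads from there may not have been counted as unique.

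**Figure D3:**
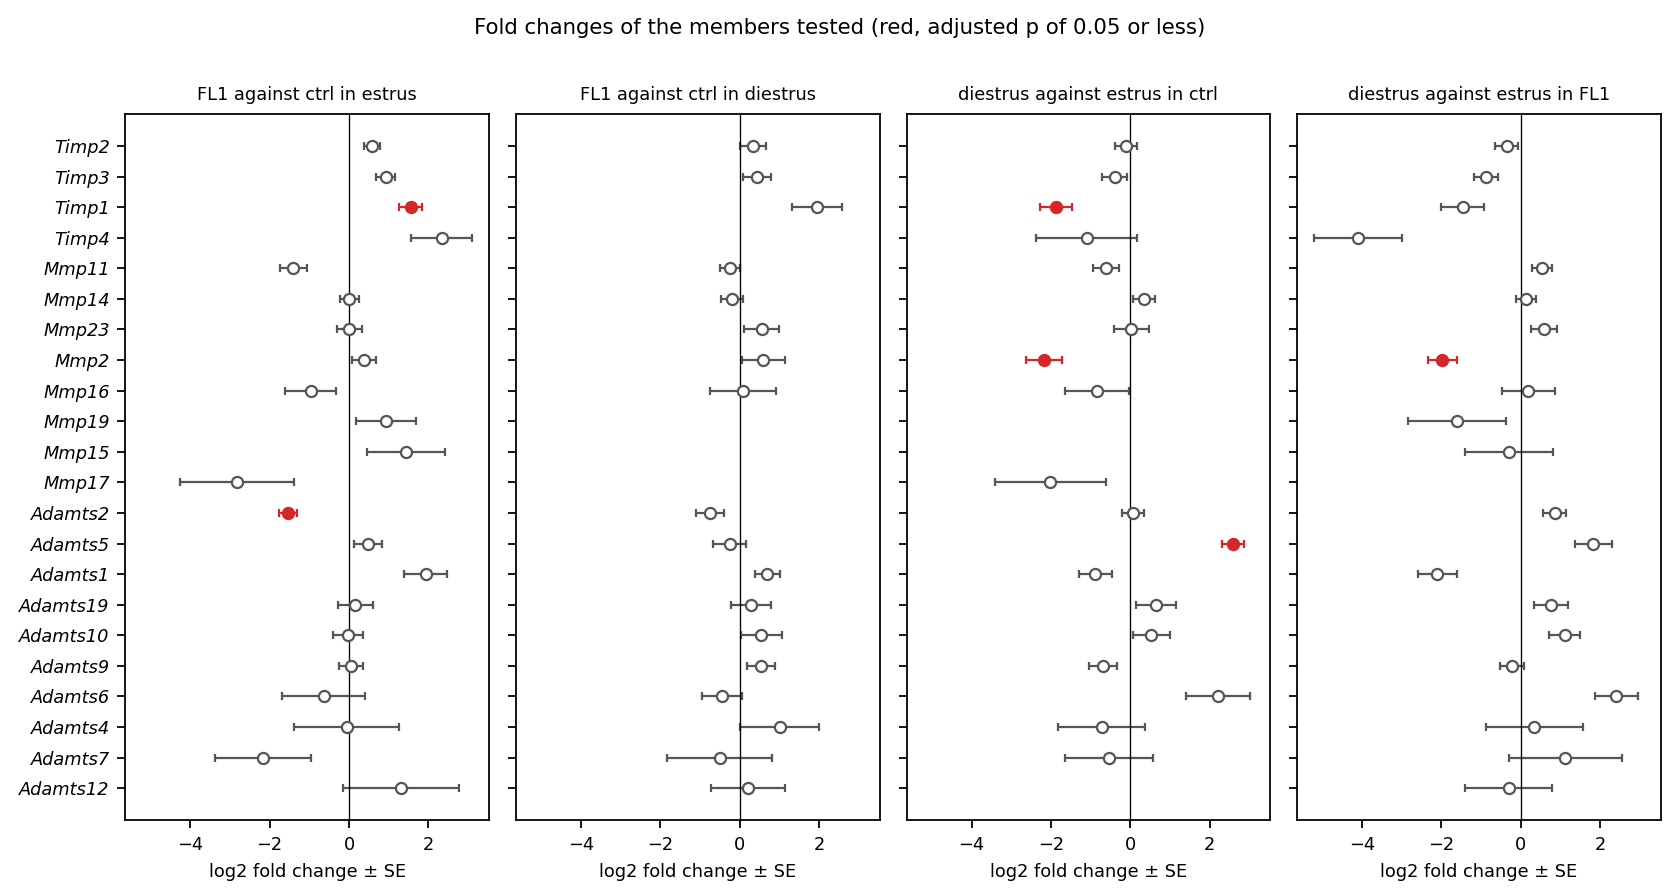
Log2 fold change with SE (x axis) of the members tested (y axis) in the 4 comparisons, 1 panel each. Filled red circles passed an adjusted p of 0.05. The TIMP rows lie right of 0 in estrus (FL1 against ctrl) and left of 0 in both comparisons of the stages, and Mmp2 is filled in both of these.

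The remaining members that were tested are given by their group means in the order ctrl estrus, FL1 estrus, ctrl diestrus and FL1 diestrus, and none was called by edgeR in any comparison. Mmp23 had 32.3, 32.5, 33.2 and 48.8 CPM. Adamts19 had 24.4, 27.3, 38.5 and 46.7 CPM and Adamts10 had 21.1, 20.7, 30.5 and 44.8 CPM, so that the means of both were higher in diestrus, but with SD of 7.49 to 27.3 CPM. Adamts9, a proteoglycan-cleaving protease, had 28.9, 30.1, 18.1 and 26.1 CPM. Mmp16 had 13.2, 6.77, 7.37 and 7.76 CPM. Mmp19 had 4.41, 8.45, 0.107 and 2.75 CPM, and in ctrl diestrus only 2 of 5 samples had reads of it, with at most 3. Mmp19 shares 280 bases at its end with Tmem198b on the other strand, which had 852 reads against 529, so its values are uncertain. Mmp15, whose transcript end resembles that of 39 other genes, had 1.996, 5.48, 1.03 and 4.42 CPM, Mmp17 had 4.50, 0.628, 1.10 and 1.74 CPM and Adamts7 had 7.57, 1.65, 5.20 and 3.65 CPM. Adamts4 had 5.15, 4.91, 3.12 and 6.24 CPM. Adamts12 had 1.91, 4.79, 3.34 and 3.88 CPM, and Adamts17 had 1.23, 2.19, 1.67 and 1.31 CPM.

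Of the members that were tested in no comparison, Mmp12 (metalloelastase, a macrophage protease) had 163 reads in 8 samples. Of these, 92 were in FL1 diestrus, with 75 in 1 sample. Mmp13 had 20 reads, 19 of them in FL1 diestrus, and Mmp27 had 20, of which 16 were in 1 ctrl estrus sample. Adamts18 had 36 reads, all in 1 FL1 diestrus sample. Mmp24 had 49 reads, and 363 bases at a transcript end of it are identical to BC029722 on the other strand, which had 4040, so this count is uncertain. Adamts15 had 48 reads, Adamts16 8, Mmp25 2 and Mmp8 1.

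Whether the lines changed differently with the stage was tested by the interaction of line and stage in all 20 samples. No member of 23 tested was called by edgeR, 1 (Mmp11) had an unadjusted p under 0.05, and over all 14938 genes the share called was 0%, with 710 genes at an unadjusted p under 0.05 by edgeR and 1 gene called by DESeq2. For Mmp11 the interaction was 1.15 ± 0.44 (SE, adjusted p = 0.982, edgeR). For Timp1 it was 0.39 ± 0.72, for Adamts2 0.79 ± 0.43 and for Adamts5 -0.74 ± 0.58 (SE, each with an adjusted p of 1.00, edgeR). For these genes it was not shown that the difference between the lines changed with the stage. Without FL1 diestrus replicate 1 the sign of the Timp1 interaction turned, to -0.60 ± 0.59 (SE, adjusted p = 1.00, edgeR).

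The families were also summed per sample, as a description without a test. TIMP transcripts summed to 169 to 391 CPM in ctrl estrus, 518 to 723 CPM in FL1 estrus, 149.9 to 314 CPM in ctrl diestrus and 149 to 343 CPM in 4 samples of FL1 diestrus, with replicate 1 at 700.1 CPM. MMP transcripts had means of 456, 304, 346 and 334 CPM and ADAMTS transcripts of 438, 397, 673 and 560.1 CPM in the same order. The ratio of TIMP to the sum of MMP and ADAMTS transcripts ran from 0.218 to 0.602 in ctrl estrus and from 0.829 to 1.07 in FL1 estrus, without overlap. It ran from 0.107 to 0.362 in ctrl diestrus and from 0.169 to 0.395 in 4 samples of FL1 diestrus, with replicate 1 at 1.15. Timp1 made up 16.1% to 33.8% of the TIMP transcripts in ctrl estrus, 23.4% to 46.7% in FL1 estrus, 4.59% to 20.6% in ctrl diestrus and 5.98% to 20.2% in 4 samples of FL1 diestrus, with replicate 1 at 34.3%. Transcript sums do not measure protein or activity.

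**Figure D4:**
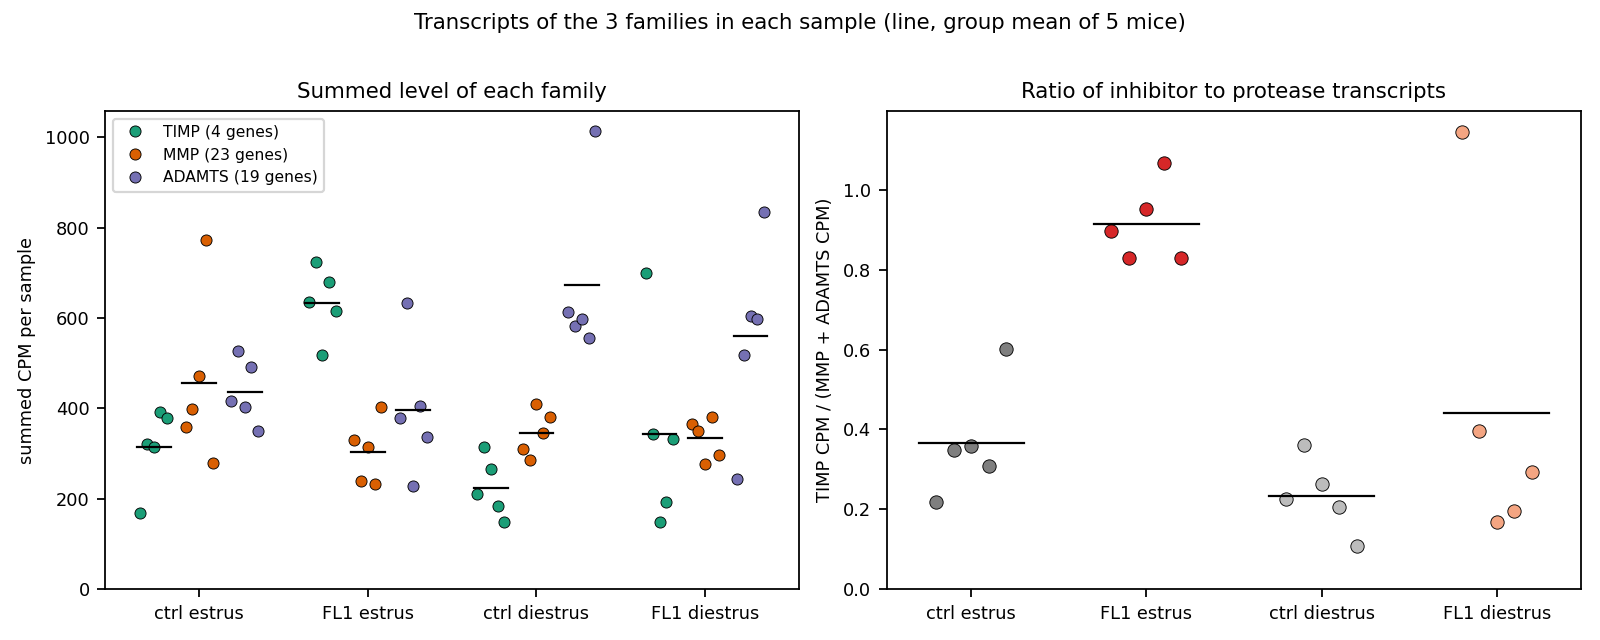
Left, summed CPM of the TIMP, MMP and ADAMTS genes in each of the 20 mice. Right, the ratio of TIMP to MMP plus ADAMTS transcripts, with lines for the group means. The 5 FL1 samples of estrus lie between 0.829 and 1.07 and FL1 diestrus replicate 1 lies at 1.15, above all other samples.

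Mmp2, Timp2 and Mmp14 act together, since pro-MMP2 is activated by MMP14 with TIMP2 as a bridge, and so these pairs were compared over the 20 samples as deviations of log2 CPM from the group mean. Mmp2 and Timp2 moved together with a Pearson r of 0.736 (permutation test within groups, adjusted p = 0.0220 over 6 pairs, unadjusted p = 0.00367) and a Spearman rho of 0.716 (permutation p = 0.00418, adjusted p = 0.0251). Without the 2 samples farthest from the median of Mmp2, r was 0.697. Mmp2 and Mmp14 had an r of 0.149 (permutation p = 0.633, adjusted p = 0.682) and a rho of 0.266 (p = 0.2995, adjusted p = 0.477). Mmp14 and Timp2 had an r of 0.162 (permutation p = 0.569, adjusted p = 0.682) and a rho of 0.158 (p = 0.536, adjusted p = 0.558). With Adamts1, an r of 0.105 was found for Pgr, the progesterone receptor gene (permutation p = 0.682, adjusted p = 0.682) and a rho of 0.244 (p = 0.318, adjusted p = 0.477). For Vcan, the versican gene, r was 0.295 (permutation p = 0.123, adjusted p = 0.370) and rho 0.358 (p = 0.130, adjusted p = 0.390). Timp1 and Lhcgr had an r of 0.237 (permutation p = 0.277, adjusted p = 0.554) and a rho of 0.141 (p = 0.558, adjusted p = 0.558). Without the 2 farthest samples r was 0.224, 0.114, 0.280, 0.294 and 0.0553 in these 5 pairs. The samples of a pair share their library and its mix of cells.

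**Figure D5:**
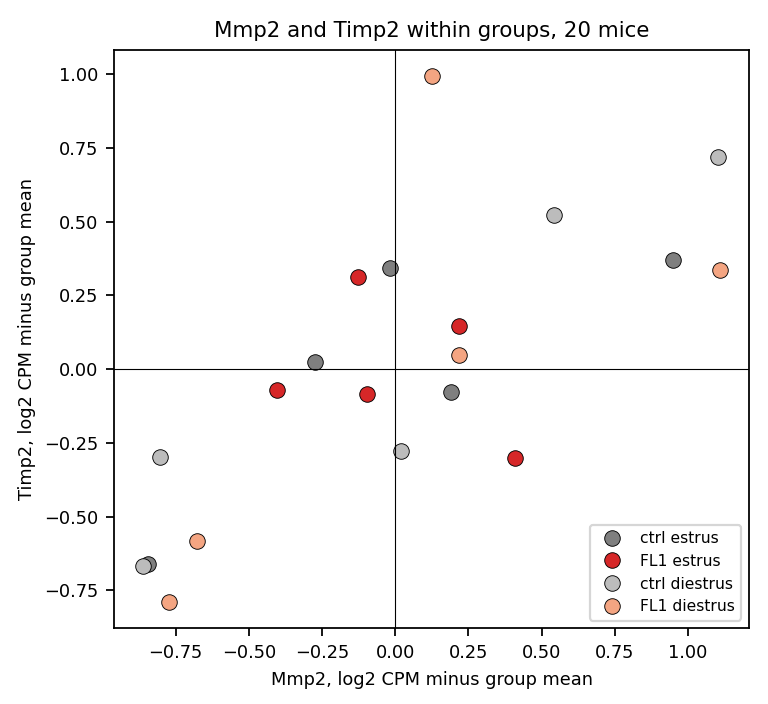
Deviation of Timp2 (y axis) against that of Mmp2 (x axis) from the mean of their group, in log2 CPM, for the 20 mice. Circles are samples, coloured by group. The points rise together, with a Pearson r of 0.736.

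Genes that control these proteases, ADAMTS substrates, ADAMTS-like genes and other metalloproteases were given by 50 partner genes in 5 lists. Of these, 33 were tested between the lines in estrus and 32 in diestrus, 32 between the stages in ctrl and 32 in FL1, and 2 were called in all, both higher in diestrus than in estrus within ctrl. These were 2 of the 10 tested ADAMTS substrates. Fbn2, which encodes the microfibril protein fibrillin 2, was at 44.75 ± 10.98 CPM (SD, n = 5) in ctrl estrus and at 138 ± 51.4 CPM in ctrl diestrus, with a log2 fold change of 1.62 ± 0.25 (SE, adjusted p = 0.00532, edgeR). In FL1 its samples did not overlap either (48.2 ± 26.8 and 137 ± 38.3 CPM), where the share over all genes was 2.42% in FL1 and 3.66% in ctrl. The log2 fold change in FL1 was 1.50 ± 0.35 (SE, adjusted p = 0.0843 by edgeR and 0.00703 by DESeq2). Thbs1, the gene of thrombospondin 1, was at 121 ± 33.7 and 267 ± 109.5 CPM in ctrl, with 1.13 ± 0.27 (SE, adjusted p = 0.0464, edgeR), and at 161 ± 53.0 and 352 ± 187 CPM in FL1, with 1.11 ± 0.34 (SE, adjusted p = 0.201, edgeR).

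Lrp1, a receptor that clears proteases and their inhibitor complexes from the cell surface, was at 468 ± 173 CPM in ctrl estrus and at 210.4 ± 72.3 CPM in FL1 estrus (SD, n = 5 each). Its log2 fold change of -1.16 ± 0.28 (SE) had an adjusted p of 0.0605 by edgeR and of 0.00729 by DESeq2. Bgn, the gene of the small proteoglycan biglycan, was at 34.0 and 83.7 CPM in ctrl and FL1 estrus (1.30 ± 0.34 SE, adjusted p = 0.0944, edgeR). Between the stages in ctrl, Pcsk6, a proprotein convertase, had -2.31 ± 0.62 (SE, adjusted p = 0.0829, edgeR) and Dcn, the decorin gene, -1.34 ± 0.43 (SE, adjusted p = 0.161). Between the stages in FL1, Hspg2, the perlecan gene, had -1.84 ± 0.44 (SE, adjusted p = 0.0869, edgeR), Spock2 -0.91 ± 0.28 (SE, adjusted p = 0.221) and Pappa, a protease of IGF binding proteins, -2.43 ± 0.84 (SE, adjusted p = 0.295). None of these 7 genes passed the test by edgeR, while DESeq2 called Bgn (adjusted p = 0.0244), Pcsk6 (0.0105) and Hspg2 (0.00801) as well as Lrp1. The lists of protease control genes, ADAMTS-like genes, membrane ADAM proteases and other zinc metalloproteases had no gene called by edgeR in any comparison.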

How the data were processed

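RNA of mural GCs was sequenced with QuantSeq 3′ libraries, which read the end of each polyadenylated transcript. The authors mapped the reads with STAR to GRCm38 and deposited 1 file of raw read counts per gene for each of the 20 samples, without normalisation. Whether strand was used in counting is not given in the sources used here, so reads of a gene and of an overlapping gene on the other strand cannot be told apart. Reads on genes made up 48.9% to 58.4% of all reads, and 23.2% to 32.8% mapped to several places and were left out of the gene counts. Of the 55487 gene identifiers, 55227 were found in GENCODE M21 and 260 were not.

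From these counts, each pairwise comparison was fitted to its 10 samples, and the interaction to all 20, with edgeR 4.0.16 in R 4.3.3 (quasi-likelihood F test after TMM scaling, on genes kept by filterByExpr at its settings of 10 reads per sample, 15 reads in total and 0.7 of the samples of a large group). Calls needed a Benjamini-Hochberg adjusted p of 0.05 or less over all genes tested. The SE was taken as the fold change over the root of F, and log2 CPM used a prior count of 2. Intervals and limits from counts cover counting error only, since the libraries were counted as reads. Alternatives were DESeq2 1.42.0, limma-voom 3.58.1, RLE size factors, robust estimation, no filter, the replicate number as a block, all 20 samples in one fit, and fits that drop 1 sample. Each sample came from a separate mouse. The scripts were tested on simulated data with known fold changes. Correlations used 100000 permutations within groups (SciPy 1.17.1, NumPy 2.4.6, pandas 2.3.3, Python 3.11.15). Transcript ends (the last 500 bases) were compared with BLAST 2.17.0, and a match of 90% identity over 100 bases or more was taken as a near copy. Such matches include genes that overlap a member on the other strand.

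The members, the lists of partners and markers and the tests were chosen with earlier results of these data known. Values of every sample are given for members called in any comparison or with an unadjusted p under 0.01, for the 6 with the highest mean and for Timp1 and Mmp11, which the study lists. Partners were named where called or at an unadjusted p under 0.01, and Lrp1 because the study lists it.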

Additional observations from a re-analysis of the deposited data

Results flagged for a closer look

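In 7 of 44 groups of 5 samples, 1 sample lay so far from the others that its gap to the nearest one, divided by the range of the group, was above Dixon's 95% critical value for 5 samples. For normally distributed values, chance gives this in about 1 of 20 groups. The CPM values were not transformed here, and the members were partly chosen by their p or level. The 7 groups can therefore not be set against that rate. In all 7 the sample apart was the highest of its group. FL1 estrus replicate 2 was such a sample in 3 members, with 453.1 CPM of Adamts1 (next 118.5 CPM), 310.9 CPM of Timp3 (next 196 CPM) and 58.5 CPM of Timp4 (next 13.3 CPM). FL1 diestrus replicate 1 had 240.4 CPM of Timp1 (next 67.4 CPM), and FL1 diestrus replicate 4 had 305 CPM of Adamts2 (next 148 CPM). In Timp4, ctrl estrus replicate 5 had 7.10 CPM (next 3.09 CPM) and ctrl diestrus replicate 1 had 6.24 CPM (next 1.203 CPM), values that stand for 41 and 35 reads.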

How the results depend on the processing

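For 16 differences of single members, 272 alternative values were computed. All 272 kept their direction, 232 also their side of the threshold, 20 lost it and 20 passed it newly. Between the lines in estrus 4 members were called by DESeq2 and 5 without the filter on low counts (373 of 24103 genes), against 2 as reported. In diestrus, 1 member (Timp1) was called without the filter, against 0 as reported. Between the stages in FL1, 4 members were called by DESeq2, 6 without the filter (299 of 24355 genes) and 3 with all 20 samples in one fit (65 of 14938 genes), against 1 as reported. The cause was not tested. With 1 sample left out in turn, the members called numbered 1 to 3 between the lines in estrus, 0 to 0 in diestrus, 1 to 3 between the stages in ctrl, 0 to 4 in FL1 and 0 to 0 in the interaction. The 4 calls in FL1 were those without FL1 diestrus replicate 1. Over all genes the counts in these fits ran from 66 to 130 between the lines in estrus, 21 to 32 in diestrus, 77 to 176 between the stages in ctrl, 13 to 178 in FL1 and 0 to 0 in the interaction.

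Samples with the same replicate number in 2 groups did not deviate together (correlations of -0.116 to 0.117), so the numbers were not taken as pairs. With the replicate number as a block, 2, 0, 3, 1 and 0 members were called in the 5 comparisons, as without it. Over all genes the calls fell to 58 of 13007 in estrus and 13 of 12886 in diestrus.

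Of the 46 members, 23 passed the filter on low counts in no comparison, 10 of them without a read. Only read counts and levels are given for these members, and no difference between groups is claimed for them.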
